A study of Mus musculus with 10 samples.

Results

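Genes of the Wnt and planar cell polarity pathways were examined in mouse embryos without fibulin-1, an extracellular matrix glycoprotein that cells secrete. The members were a list of 38 genes chosen by symbol, covering ligands, receptors, secreted inhibitors, cytoplasmic transducers, nuclear effectors and polarity proteins. Of these, 37 had a probe set under their own symbol in the platform annotation, among 12393 genes on the array, and Tcf7 had none. Each gene was read on its brightest probe set by the mean over all 10 arrays, and 18 of the 37 had a log2 signal over 4 on at least 5 arrays, the level required for a test. The other 19 were under that filter and are described by level only, apart from differences between Dvl genes that are given at the end and not used.

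Wnt proteins are secreted lipid-modified ligands that bind Frizzled receptors. With the co-receptors Lrp5 and Lrp6 they act through Dishevelled to stop the destruction complex of Apc, Axin and Gsk3b from degrading beta-catenin, which then joins Tcf and Lef factors on target genes such as Axin2. Other Wnt signals pass through Ror2, Ryk, Vangl and Prickle to orient cells within a sheet. Wnt signals are known for their part in the induction of neural crest, the migratory cells that populate the pharyngeal arches, and polarity signals for the movements that close the neural tube.

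The tissue was microdissected hindbrain with pharyngeal arches 1 to 4 from embryos at E10.5, the offspring of parents that each carried 1 copy of a gene trap insertion in Fbln1. Affymetrix arrays were hybridised with RNA from 5 wildtype embryos and 5 embryos homozygous for the gene trap, here called Fbln1-null. The gene trap acts in every cell that would express Fbln1, and the labels name no litter, so p-values reflect only how far these arrays spread. Values are GCRMA log2 signals, in which dim probe sets are drawn to a floor, most often 2.27, so that differences near the floor are compressed.

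The genotype labels were checked on Fbln1 itself. Its brighter probe set read 4.93, 5.11, 3.83, 4.47 and 4.41 in wildtype replicates 1 to 5 and 2.52, 2.6, 2.62, 2.72 and 2.85 in null replicates 3, 4, 5, 7 and 8. The genotypes did not overlap (log2 difference -1.88, exact permutation p = 0.00794, two-sided, the lowest value possible with 5 arrays a side). This probe set was over log2 4 on 4 arrays, all wildtype, so it was under the filter itself. A floor at log2 4 gave a difference of -0.58 (exact permutation p = 0.0476). Of 9 hindbrain identity genes on the array 5 were over the filter (Hoxa2, Hoxa3, Hoxb3, Hoxb4, Meis2), while Hoxb1, Hoxb2, Egr2 and Gbx2 were under it. Of 14 arch genes 7 were over it (Dlx1, Dlx2, Dlx3, Prrx1, Prrx2, Twist1, Tfap2a), while Hand2, Dlx5, Dlx6 and Msx1 were not. None of 3 forebrain and eye genes or 5 leukocyte genes was over the filter, and of 6 midbrain and isthmus genes only Otx2 was. The 3 embryonic globins on the erythroid list were over it, so globin RNA was in the tissue, while Gata1, Alas2 and Epor were under it, with means of at most 2.78. The mean of all 6 genes of that list was 6.68 to 7.6 in wildtype and 7.12 to 7.56 in null arrays. Wildtype replicate 4 was the one array with high Xist and low Y-linked signal, and the log2 ratio of the 3′ to the 5′ actin control probe set was 2.0 to 2.38 in wildtype and 2.19 to 2.85 in null arrays. In whole tissue, fewer cells of a type and less RNA per cell cannot be told apart.

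Dvl1, which encodes a Dishevelled protein that relays Wnt signals from Frizzled receptors, differed most between genotypes among the members tested, with a null mean 0.94 log2 units below the wildtype mean. Ryk, an atypical receptor kinase for Wnt ligands, and Fzd3, a Frizzled receptor, had lower means by 0.50 and 0.39 log2 units. Sfrp1, a secreted Wnt antagonist, and Axin2, a feedback inhibitor and target of beta-catenin, had higher means by 0.44 and 0.39. Of the 18 members tested 0 passed an adjusted p of 0.05 in the limma fit over 9801 probe sets, where 0.0338% of 5912 genes did. At an unadjusted p of 0.05 stood 4 of 18, against 12.8% of genes. Of these 3 were lower (Dvl1, Ryk and Fzd3), against 9% of genes, and 1 was higher (Sfrp1), against 3.84% of genes. The genotypes did not overlap for 2 of 18 (Dvl1 and Fzd3, both lower), against 2.03% of genes that were lower without overlap. At an adjusted p of 0.1 stood 1 of 18, Dvl1, against 0.423% of genes that were lower at that level.

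With the deposited values and all arrays, the members as a whole did not lean to a side. Their log2 differences ran from -0.94 to 0.44, with a median of -0.01, beside a median of -0.04 over all genes. There were 9 lower and 9 higher, so 50% were lower, against 56.9% of all genes. The split was 7 lower and 11 higher with quantile normalization, and 6 and 12 without wildtype replicates 1 and 2. The median absolute difference was 0.23 for the members and 0.15 for all genes. Wildtype replicates 1 and 2 and null replicates 3 and 4 had higher levels of these genes than the other arrays. Without all 4 the median was 0.07, with 10 members higher and 8 lower, and 4 members did not overlap (Axin2 and Ryk beside Dvl1 and Fzd3), against 13.8% of all genes at that setting. Without the 2 wildtype arrays alone, a choice that leaves the 2 high null arrays in, the median was 0.20, and the same 4 did not overlap, against 8.07% of genes.

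**Figure D1:**
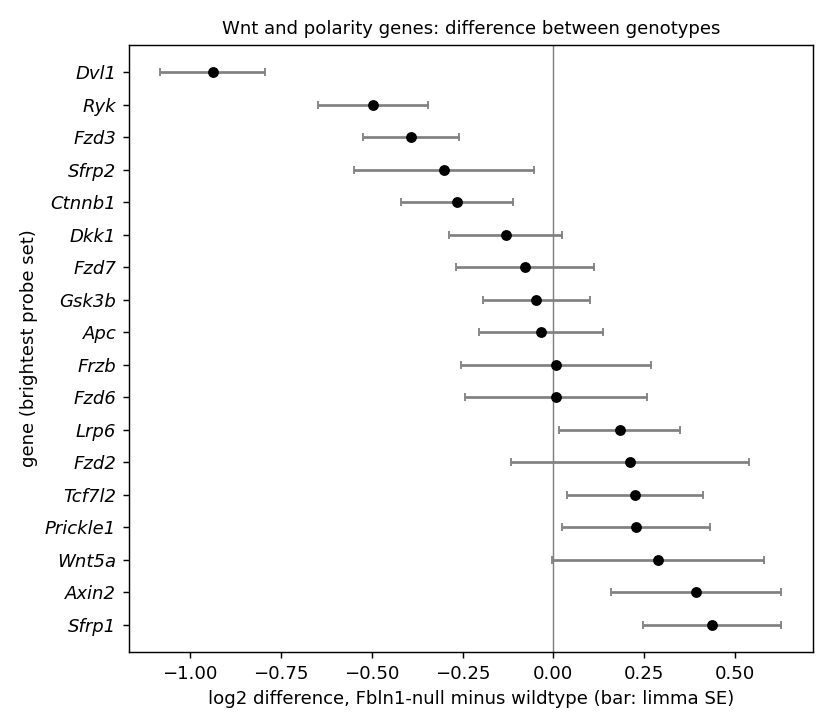
Log2 difference of Fbln1-null minus wildtype tissue (horizontal axis) for each of the 18 tested genes (vertical axis), with the limma standard error as the bar, n = 5 arrays in each group. Dvl1 lies farthest from 0 at -0.94 and Sfrp1 is highest at 0.44.

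The regions before the transcription starts of Dvl1 and Ryk, the members with the smallest p, are shown to describe their sequence, with those of Ctnnb1, the transducer of the beta-catenin branch, and Dvl2, a paralogue of Dvl1, for comparison. Each is the 250 bases before the RefSeq start on the plus strand of GRCm38.p6, in lower case with GC boxes (GGGCGG, or CCGCCC on the other strand) in capitals. The promoter sequences at hand held no region for Fzd3.
Dvl1, chr4:155847152-155847401: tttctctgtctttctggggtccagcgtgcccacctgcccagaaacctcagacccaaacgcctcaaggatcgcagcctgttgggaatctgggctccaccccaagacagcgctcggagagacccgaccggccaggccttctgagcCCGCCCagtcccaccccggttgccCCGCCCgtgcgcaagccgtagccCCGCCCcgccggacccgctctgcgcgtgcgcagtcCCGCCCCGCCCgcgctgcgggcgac
Ryk, chr9:102834670-102834919: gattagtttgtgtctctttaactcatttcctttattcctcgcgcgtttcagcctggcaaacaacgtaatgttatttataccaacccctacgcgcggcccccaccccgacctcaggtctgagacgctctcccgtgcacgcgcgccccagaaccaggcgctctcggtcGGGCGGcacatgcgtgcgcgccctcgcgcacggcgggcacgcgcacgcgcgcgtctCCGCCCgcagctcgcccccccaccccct
Ctnnb1, chr9:120933150-120933399: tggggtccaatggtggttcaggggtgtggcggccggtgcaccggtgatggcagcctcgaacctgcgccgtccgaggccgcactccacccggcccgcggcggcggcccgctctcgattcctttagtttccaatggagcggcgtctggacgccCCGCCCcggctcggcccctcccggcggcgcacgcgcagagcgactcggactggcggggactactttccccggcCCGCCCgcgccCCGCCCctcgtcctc
Dvl2, chr11:70000342-70000591: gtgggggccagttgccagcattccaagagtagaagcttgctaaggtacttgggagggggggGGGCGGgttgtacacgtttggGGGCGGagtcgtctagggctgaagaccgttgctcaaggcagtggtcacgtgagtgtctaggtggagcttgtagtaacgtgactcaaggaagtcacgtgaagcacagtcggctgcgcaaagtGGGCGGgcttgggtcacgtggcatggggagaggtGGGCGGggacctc
Dvl1 held 5 GC boxes, 2 of which overlap by 1 base, and 71.2% G and C. Dvl2 held 4 GC boxes at 60.8% G and C, Ryk 2 at 65.2% and Ctnnb1 3 at 74.8%. A GC box, the motif of Sp and Klf factors, was in at least 1 such window of 23 of the 28 members in the table (82.1%), against 35.4% of all genes in it. For genes over the expression filter the shares were 8 of 11 members (72.7%) and 67.6% of all. The core motif of Tcf and Lef factors (CTTTGAT, or ATCAAAG on the other strand) was in none of these 4 windows. It was found for 1 of the 28 members, Wnt11, and for 3.72% of all genes in the table.

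Of the 5 ligands Wnt5a alone was over the filter. Wnt5a, the main polarity ligand of arch mesenchyme, read 7.58, 7.87, 7.94, 7.34 and 7.56 in wildtype replicates 1 to 5 and 8.66, 7.86, 6.87, 8.58 and 7.75 in null replicates 3, 4, 5, 7 and 8. The null arrays spanned the wildtype range on both sides, with 2 above it and 1 below (log2 difference 0.29, SE 0.29, limma adjusted p = 0.737). It was 0.11 without null replicate 3, 0.13 without null replicate 7 and 0.56 without null replicate 5. The second Wnt5a probe set differed by 0.04 (SE 0.20). Wnt1, a ligand of the dorsal neural tube, stayed at 2.27 to 2.28 on all 10 arrays, the floor, so its level gives no comparison. Wnt4, Wnt6 and Wnt11 also lay near the floor, with means of 2.28 to 2.90.

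Among the receptors Fzd3, a Frizzled of neural tissue known for axon guidance and polarity, had the tightest null values. Its brightest probe set (1420087_at) read 6.67, 7.10, 6.67, 7.15 and 7.10 in wildtype replicates 1 to 5 and 6.49, 6.49, 6.59, 6.66 and 6.5 in null replicates 3, 4, 5, 7 and 8. All 5 null arrays read under the lowest wildtype array, by 0.01 at the closest, so the separation is narrow. The log2 difference was -0.39 (SE 0.13, limma adjusted p = 0.282). All 4 Fzd3 probe sets were over the filter and all 4 had lower null means. The dimmest, with wildtype values of 4.44 to 5.10 and null values of 3.87 to 4.4, did not overlap (-0.52, SE 0.16, limma adjusted p = 0.260). It was over log2 4 on 7 arrays, every wildtype array among them, so it met the filter through the wildtype arrays. Its separation is therefore not further support. The other probe sets overlapped, at -0.29 (SE 0.17) and -0.05 (SE 0.15). With quantile normalization or with array medians subtracted the brightest Fzd3 probe set overlapped between genotypes.

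Ryk encodes an atypical receptor tyrosine kinase that binds Wnt ligands. It read 6.55, 6.34, 6.80, 7.0 and 6.57 in wildtype replicates 1 to 5 and 6.42, 6.22, 5.88, 6.02 and 6.23 in null replicates 3, 4, 5, 7 and 8. Of the null arrays 4 lay below the wildtype range and replicate 3 lay within it (log2 difference -0.50, SE 0.15, limma adjusted p = 0.243). This probe set (1426388_s_at) is of a type that can match several transcripts, and the second Ryk probe set differed by -0.08 (SE 0.16).

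The other tested receptors differed by less than the spread between arrays. Lrp6, the co-receptor of the beta-catenin branch, ranged from 9.55 to 9.97 in wildtype and 9.44 to 10.4 in null arrays (log2 difference 0.18, SE 0.17). Fzd2 ranged from 8.16 to 9.58 and from 8.52 to 9.94 (0.21, SE 0.33), the widest spread of the 6 tested receptors. Fzd7 ranged from 8.12 to 8.86 and from 7.91 to 8.55 (-0.08, SE 0.19) and Fzd6, a Frizzled of skin and hair polarity, from 3.99 to 5.36 and from 4.32 to 5.15 (0.01, SE 0.25). Their limma adjusted p was 0.706 to 0.995. Fzd1, Fzd4, Fzd5, Fzd8, Fzd9 and Lrp5 were under the filter with means of 2.27 to 2.64. Ror2, a receptor for Wnt5a, came nearest to the filter, at 3.87 ± 0.29 in wildtype and 3.79 ± 0.17 in null arrays (SD, n = 5 each).

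**Figure D2:**
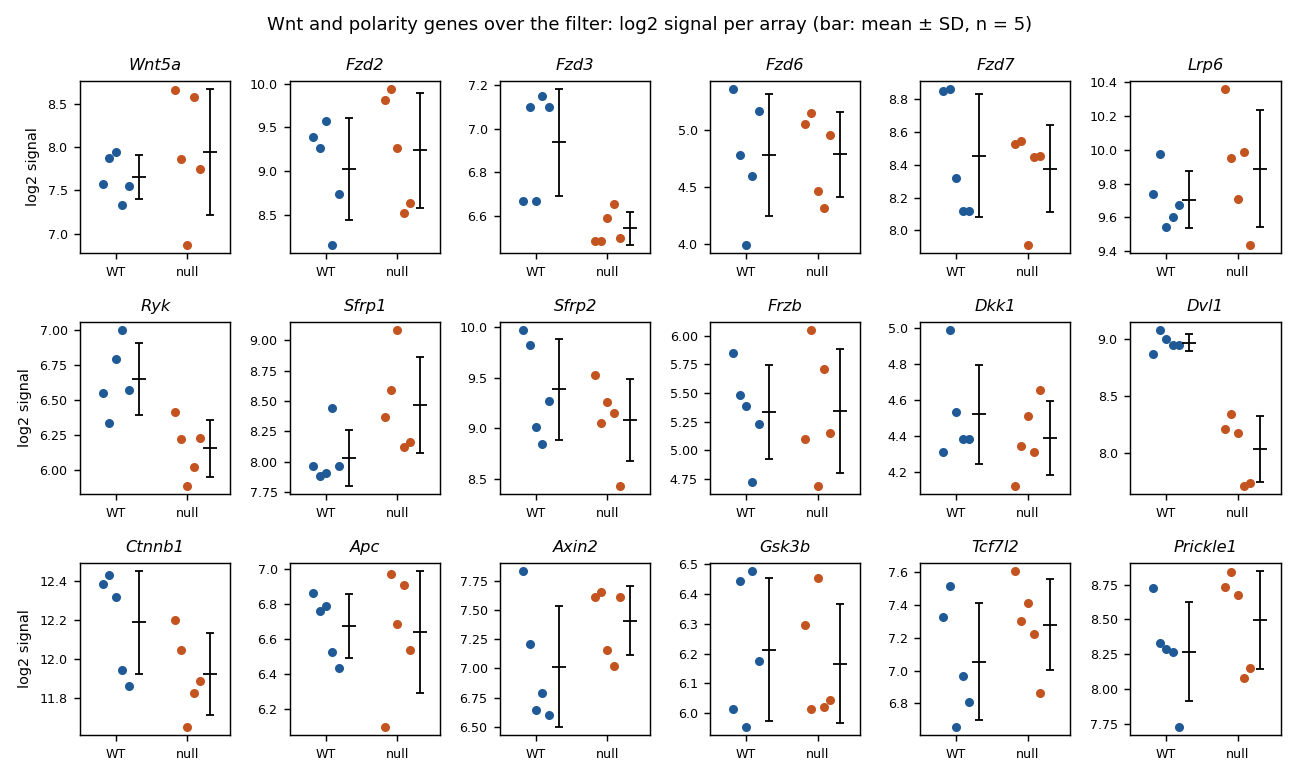
Log2 signal of each tested gene on every array (1 panel per gene, vertical axis in log2 units with its own scale), in wildtype (WT) and Fbln1-null (null) tissue, with the mean and SD of 5 arrays beside the points. Only Dvl1 and Fzd3 have all null points below all wildtype points.

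Of the 5 secreted inhibitors 4 were tested. Sfrp1, which binds Wnt ligands outside the cell, read 7.97, 7.88, 7.90, 8.44 and 7.97 in wildtype replicates 1 to 5 and 8.37, 8.59, 9.09, 8.12 and 8.17 in null replicates 3, 4, 5, 7 and 8. Every null array lay above 4 of the wildtype arrays, and wildtype replicate 4 lay within the null range. The log2 difference was 0.44 (SE 0.19, limma adjusted p = 0.376), and it was 0.28 without null replicate 5, the highest array. The 3 dimmer Sfrp1 probe sets were under the filter.

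Sfrp2, a related antagonist, read 9.97 and 9.83 in wildtype replicates 1 and 2, 8.85 to 9.27 in the other wildtype arrays and 8.43 to 9.52 in null arrays. Its log2 difference was -0.30 (SE 0.25, limma adjusted p = 0.674). It was 0.04 without those 2 arrays, -0.09 with null replicates 3 and 4 left out too, and -0.65 with the actin ratio in the fit. Frzb, of the same family, had equal means of 5.34 ± 0.41 (SD, n = 5) and 5.34 ± 0.54, which give a log2 difference of 0.01 (SE 0.26). Dkk1, an Lrp5 and Lrp6 antagonist, had 4.52 ± 0.27 and 4.39 ± 0.20 (-0.13, SE 0.16). Wif1 was near the floor at 2.34 and 2.33.

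Dvl1 was the member with the clearest separation. On its brightest probe set (1437301_a_at) it read 8.87, 9.08, 9.0, 8.95 and 8.95 in wildtype replicates 1 to 5 and 8.21, 8.34, 8.17, 7.71 and 7.73 in null replicates 3, 4, 5, 7 and 8. The wildtype arrays lay within 0.22 log2 units of each other, the null arrays spread over 0.64, and the highest null array lay 0.53 below the lowest wildtype array. The log2 difference was -0.94 (SE 0.15, 1.92-fold lower, limma adjusted p = 0.0633 over 9801 probe sets). It passed 0.05 with array weights (-0.90, adjusted p = 0.0344), a filter at log2 6 (adjusted p = 0.0332), a robust fit with a variance trend (adjusted p = 0.0383) or gene means (adjusted p = 0.0380). It did not pass with the other settings tried, where the largest adjusted p was 0.349, for 3 arrays a side, and was 0.0615 to 0.204 with 1 array left out. The smallest difference, -0.73 (adjusted p = 0.245), came from the fit with replicate number as a block. That fit compares only replicates 3, 4 and 5, the numbers found in both genotypes. Dvl1 was already known from an earlier analysis of these data as one of the genes next to the threshold, so this p is not independent evidence.

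The second Dvl1 probe set was under log2 4 on every array. It read 2.88 to 3.27 in wildtype and 2.72 to 2.83 in null arrays, which did not overlap (log2 difference -0.30). At this level its values add no support to the brightest probe set. The share without overlap among probe sets under the filter was not computed. Dvl2 and Dvl3, the paralogues of Dvl1, were also under the filter. Dvl2 read 3.90, 4.16, 3.49, 3.54 and 3.43 in wildtype replicates 1 to 5 and 3.51, 3.42, 3.48, 3.09 and 3.41 in null replicates 3, 4, 5, 7 and 8, and Dvl3 read 2.26 to 2.61 in wildtype and 2.26 to 2.27 in null arrays. At these levels the values of Dvl2 and Dvl3 give no comparison with Dvl1.

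**Figure D3:**
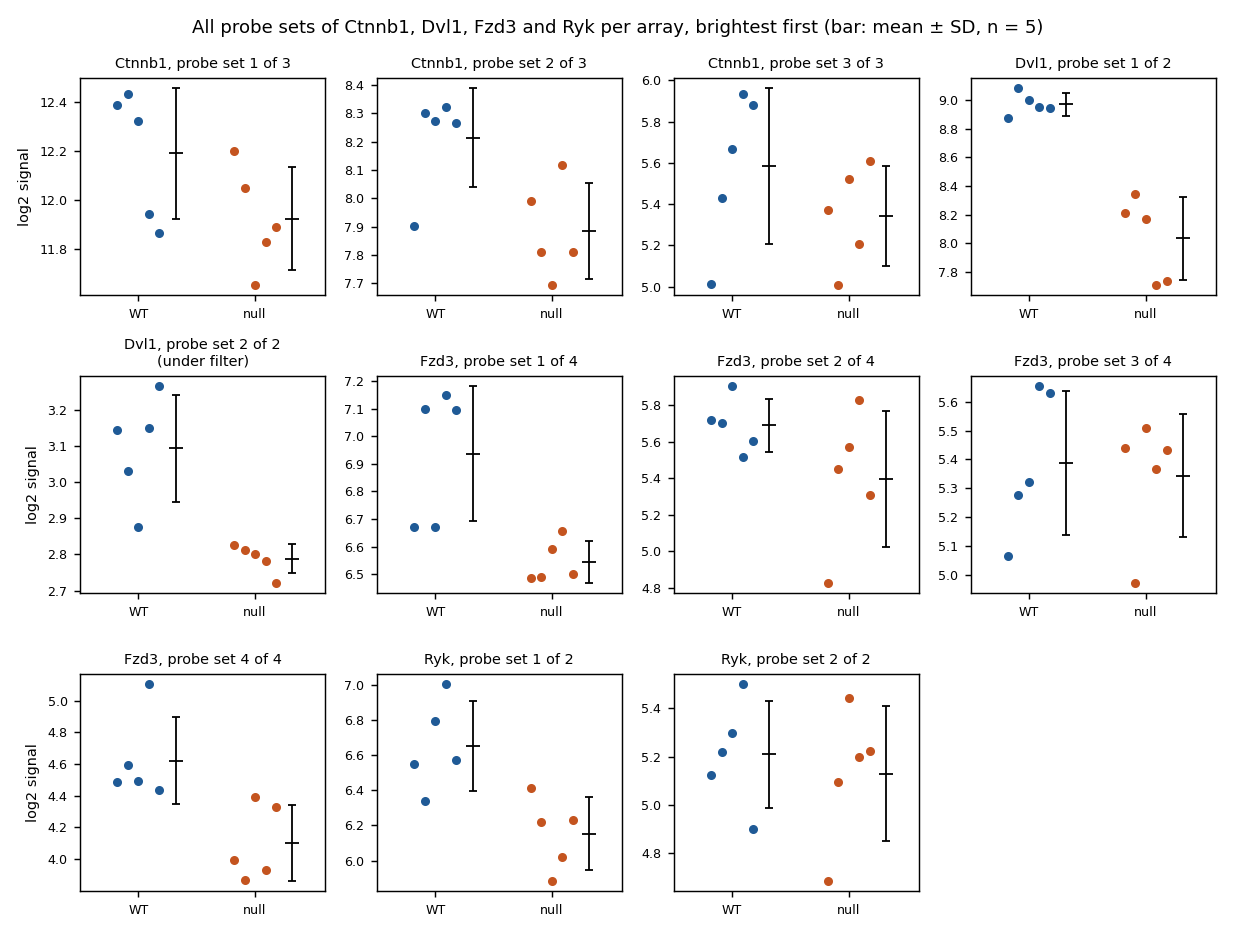
Log2 signal per array (vertical axis) for every probe set of Ctnnb1, Dvl1, Fzd3 and Ryk, brightest first within each gene, in wildtype (WT) and Fbln1-null (null) tissue, with the mean and SD of 5 arrays. The null mean is below the wildtype mean on all 11 probe sets, and the genotypes are apart on both of Dvl1 and on the first and last of Fzd3. Dvl1, Fzd3 and Ryk are the lower members of smallest p, so this count is not a test. Of all probe sets over the filter 56.9% were lower in null tissue. The second Dvl1 probe set is under log2 4 on every array, and the last of Fzd3 met the filter through the wildtype arrays.

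Ctnnb1 encodes beta-catenin, the protein whose stability the destruction complex sets. Its brightest probe set read 12.4, 12.4, 12.3, 11.9 and 11.9 in wildtype replicates 1 to 5 and 12.2, 12.0, 11.7, 11.8 and 11.9 in null replicates 3, 4, 5, 7 and 8. Wildtype replicates 1 to 3 lay above every null array, and replicates 4 and 5 lay within the null range (log2 difference -0.27, SE 0.15, limma adjusted p = 0.523). The other Ctnnb1 probe sets also had lower null means, with log2 differences of -0.33 (SE 0.13, limma adjusted p = 0.336) and -0.24 (SE 0.19). On the second one wildtype replicate 1 was the lowest wildtype array, whereas on the brightest it was among the highest.

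Axin2 read 7.84, 7.21, 6.64, 6.79 and 6.60 in wildtype replicates 1 to 5 and 7.61, 7.66, 7.16, 7.02 and 7.61 in null replicates 3, 4, 5, 7 and 8. Wildtype replicate 1 was the highest of all 10 arrays, and wildtype replicates 3, 4 and 5 lay below every null array. The log2 difference was 0.39 (SE 0.23, limma adjusted p = 0.533), 0.60 without wildtype replicate 1 (adjusted p = 0.271) 0.73 without wildtype replicates 1 and 2 (adjusted p = 0.217) and 0.58 with null replicates 3 and 4 left out too (adjusted p = 0.565). Apc, the scaffold of the destruction complex, had a log2 difference of -0.04 (SE 0.17) and -0.11 (SE 0.21) on its 2 tested probe sets, and Gsk3b, its kinase, had -0.05 (SE 0.15). The sign of the Apc and Gsk3b differences depended on the scaling of the arrays. Axin1 (2.63 in both genotypes) and Nkd1, a Dishevelled antagonist (2.50 and 2.48), were under the filter.

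Of the nuclear factors Tcf7l2 alone was tested. It ranged from 6.66 to 7.52 in wildtype and 6.86 to 7.61 in null arrays (log2 difference 0.23, SE 0.19, limma adjusted p = 0.679), while its second tested probe set had -0.21 (SE 0.17), the opposite sign. Lef1, also a target of the pathway, was near the floor (2.31 and 2.27), and Tcf7l1 was under the filter (3.22 and 3.16). Of the polarity proteins Prickle1, a cytoplasmic core component, ranged from 7.73 to 8.72 in wildtype and 8.08 to 8.84 in null arrays (0.23, SE 0.20, limma adjusted p = 0.699). Vangl2, its membrane partner, was near the floor (2.45 and 2.37). Across the tested members 10 further probe sets were over the filter, and 9 of them had the sign of the brightest one. The exception was Tcf7l2. Several of the shared signs came from differences under their SE, such as 0.02 (SE 0.19) for Lrp6 and 0.04 (SE 0.20) for Wnt5a. The share of shared signs over all genes was not computed.

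Arrays of one genotype differed from each other in the mean of these genes by more than the genotypes did. The mean log2 signal of the 18 tested members was 7.79 and 7.79 in wildtype replicates 1 and 2 and 7.46 to 7.52 in the other wildtype arrays. It was 7.73 and 7.74 in null replicates 3 and 4 and 7.40 to 7.48 in the other null arrays, while the genotype means differed by -0.04. The mean of the 9 hindbrain identity genes was also highest in these 4 arrays, at 5.23 and 5.21 in wildtype replicates 1 and 2 (4.79 to 5.04 in the others) and 5.07 and 5.09 in null replicates 3 and 4 (4.67 to 4.90 in the others). Of the 5 hindbrain genes over the filter 4 had lower null means (median log2 difference -0.22), where 56.9% of all genes did. The mean of the 14 arch genes ranged from 4.46 to 4.80 in wildtype and 4.46 to 4.79 in null arrays. The part of the hindbrain and arch levels in the results above was not tested.

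**Figure D4:**
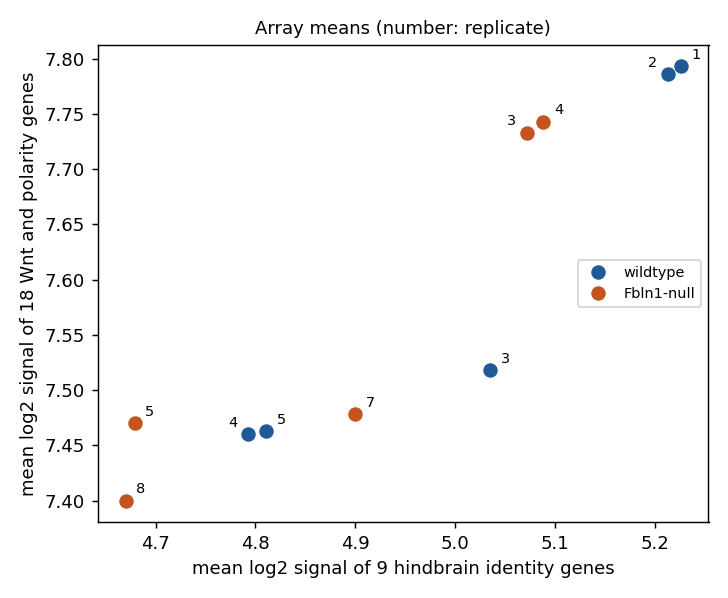
Mean log2 signal of the 18 tested Wnt and polarity genes (vertical axis) against that of 9 hindbrain identity genes (horizontal axis), 1 point per array with its replicate number. Wildtype replicates 1 and 2 and null replicates 3 and 4 sit at 7.73 to 7.79 on the vertical axis and the other 6 arrays at 7.40 to 7.52.

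Other genes of the pathways were taken from lists of 99 genes, of which 75 were on the array and 34 over the filter. Of these 0 passed an adjusted p of 0.05 in the limma fit, and 4 stood at an unadjusted p of 0.05, of which 3 were lower and 1 higher, against 12.8% of all genes. The genotypes did not overlap for 2, both lower, against 2.03% of all genes, and the median log2 difference was -0.04. No receptor or R-spondin gene among 8 on the array was over the filter.

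The largest difference was in the polarity list. Celsr1, an atypical cadherin that links neighbouring cells in planar polarity, read 6.87, 6.83, 5.96, 6.57 and 6.17 in wildtype replicates 1 to 5 and 5.77, 5.28, 5.31, 3.90 and 5.43 in null replicates 3, 4, 5, 7 and 8. No null array reached the lowest wildtype array (log2 difference -1.34, SE 0.31, limma adjusted p = 0.116), and without null replicate 7 the difference was -1.03. Celsr1 lies on the same chromosome as Fbln1, with 9 protein-coding genes between them in the RefSeq table, so the gene trap and the chromosome segment that came with it cannot be told apart as the source of its difference. Wnt7b, with 2 genes between it and Fbln1, was near the floor (2.40 and 2.35). Farther off on this chromosome lie the members Prickle1, Wnt1 and Fzd6, with 67, 121 and 384 genes between. The listed genes Cby1, Csnk1e, Wnt10b, Scrib and Rspo2 lie on it too. Mapk9, a Jun kinase downstream of polarity signals, ranged from 8.02 to 8.82 in wildtype and 7.59 to 7.93 in null arrays, which did not overlap (-0.63, SE 0.16, limma adjusted p = 0.139), while its second tested probe set had -0.01 (SE 0.11). Celsr3, a paralogue of Celsr1, had -0.57 (SE 0.23, limma adjusted p = 0.342). The remaining 7 of the 10 polarity genes tested had differences of -0.28 to 0.27.

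Among the secreted inhibitors Sostdc1, a Wnt and BMP antagonist, ranged from 5.10 to 5.52 in wildtype and 5.40 to 6.02 in null arrays (log2 difference 0.43, SE 0.14, limma adjusted p = 0.279), and Igfbp4 had -0.23 (SE 0.22). Among 10 cytoplasmic regulators Csnk1d, a casein kinase, had -0.46 (SE 0.21) and Gsk3a, the paralogue of Gsk3b, -0.45 (SE 0.24). The other tested Csnk1d probe sets had -0.50, -0.08 and 0.03. Fbxw11, an F-box protein that marks beta-catenin for degradation, had 0.22 (SE 0.13). Several Gsk3a values were 4.035 or 4.036, just over the filter. The arrays farthest from these were wildtype replicates 1 and 2 (4.64 and 4.58) and null replicate 7 (2.88). Of 10 nuclear cofactors 7 were lower, where 56.9% of all genes were. Tle3, a Groucho corepressor, had -0.34 (SE 0.21), Pygo2, a beta-catenin cofactor, -0.24 (SE 0.17) and Tbl1xr1 -0.22 (SE 0.18). A second probe set of Tbl1xr1 had 0.31. Wls, the carrier that brings Wnt ligands to the cell surface, had -0.24 (SE 0.22) on its brightest probe set and 0.25 and 0.21 on the others, and Wnt5b had 0.04 (SE 0.19). None of these 10 genes passed, with limma adjusted p of 0.279 to 0.958.

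Of 23 known target genes on the array 11 were over the filter, among them the members Axin2 and Dkk1. Of the 11, 5 had higher and 6 lower means, with a median of -0.03, and 1 stood at an unadjusted p of 0.05, where 12.8% of all genes did. This was Mycn, a Myc family factor of proliferating progenitors, which ranged from 8.13 to 9.22 in wildtype and 8.77 to 9.72 in null arrays (log2 difference 0.56, SE 0.22, limma adjusted p = 0.334). Myc had 0.27 (SE 0.23). Sp5, Lgr5, Rnf43 and Notum, targets that respond in many tissues, were all near the floor, with means between 2.27 and 2.32. With Lef1 and Nkd1 under the filter as well, the feedback targets that could be compared were Axin2 and Dkk1.

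**Figure D5:**
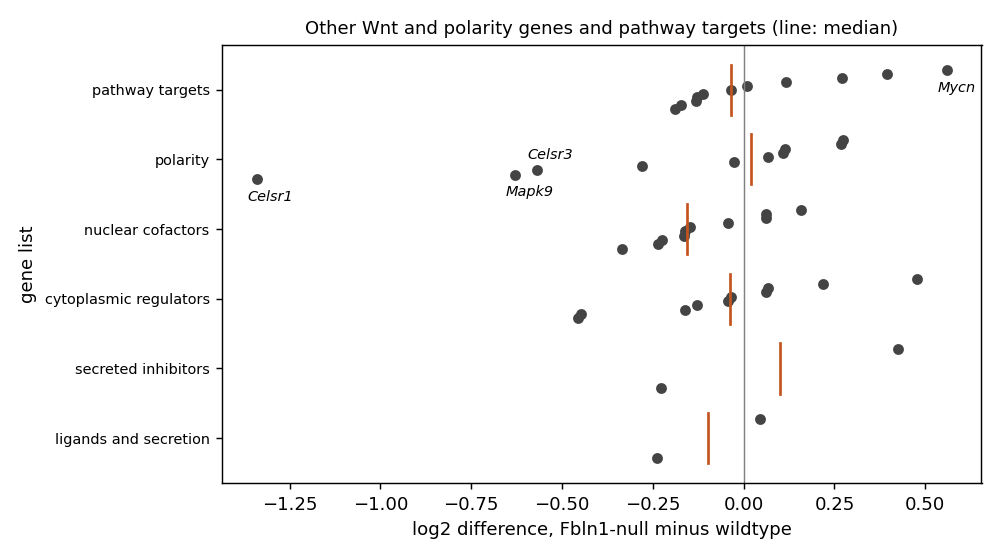
Log2 difference of Fbln1-null minus wildtype tissue (horizontal axis) for the tested genes of each list of other pathway genes and of pathway targets (rows), 1 point per gene, with the list median as a line. Celsr1 is lowest at -1.34 and Mycn highest at 0.56.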

How the data were processed

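Gene expression was measured on 10 Affymetrix arrays, 5 wildtype and 5 Fbln1-null. The authors deposited log2 signals made with GCRMA, 1 value per probe set, per the submitters' processing notes. Its version is not given in the sources used here. Fold changes of dim genes are compressed by its floor. Precision is limited by the number of arrays.

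Of 22690 probe sets 64 controls were left out, and 20380 of the rest had 1 symbol (691 several, 1555 none) in the platform annotation. Probe sets over log2 4 on at least 5 arrays (9801, for 5912 genes) were tested with limma 3.58.1 in R 4.3.3, two-sided, with genotype as the term and Benjamini-Hochberg adjustment over all of them. Fbln1 was compared with an exact permutation test. The fit was tested on simulated data.

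The members and lists were chosen with earlier results of these data known. The genes named were all members, the 3 genes of smallest p in each list and Fbln1; probe sets, tissue markers, Wnt7b and targets near the floor were named after their values were seen. Alternatives varied the filter, the scaling, the floor, array weights, the variance model, covariates for replicate number, sex and actin ratio, the choice of probe set and the arrays included. Promoter sequences are RefSeq's, GRCm38.p6, for 28 of 38 members by symbol. No genome build is named for the arrays.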

Additional observations from a re-analysis of the deposited data

Results flagged for a closer look

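In 42 groups of 5 arrays (the tested members, Fbln1, Celsr1 and Mapk9, each in both genotypes) 3 had 1 array far from the rest, where chance gives about 1 in 20. Fzd7 read 7.91 in null replicate 5, against 8.45 to 8.55 in the other null arrays. Sfrp1 read 8.44 in wildtype replicate 4, the array with high Xist signal, against 7.88 to 7.97 in the other wildtype arrays. Celsr1 read 3.90 in null replicate 7, against 5.28 to 5.77 in the other null arrays.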

How the results depend on the processing

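Of the members 1 (Dvl1) passed an adjusted p of 0.05 in the limma fit with array weights (log2 difference -0.90), a filter at log2 6 (-0.94), a robust fit with a variance trend (-0.94) or gene means (-0.94), and 0 at the other settings. Over all genes 0.372%, 0.532% and 0.118% passed at the first 3 of these. With 1 array left out the count was 0 throughout, 3 to 4 members stood at an unadjusted p of 0.05 and 2 to 3 did not overlap. Shares over all genes were not computed with 1 array left out or for gene means, so those counts have no background beside them. The number that did not overlap was 1 with quantile normalization or array medians subtracted (2.99% and 2.98% of all genes), and 4 without wildtype replicates 1 and 2, where the members' median was 0.20. It was also 4 without those and null replicates 3 and 4, a setting chosen after seeing the data. With 1 array left out the median was -0.10 to 0.08, and the Dvl1 difference -1.02 to -0.86.

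Only replicates 3, 4 and 5 occur in both genotypes, so a fit with the replicate number as a block compares these alone. It leaves out wildtype replicates 1 and 2 and null replicates 7 and 8, and keeps null replicates 3 and 4. That fit gave 0 members past the threshold, 8 at an unadjusted p of 0.05 (13.5% of all genes) and a median of 0.18. Its Dvl1 difference was -0.73. Same-numbered arrays correlated at -0.191, -0.343 and 0.158 across probe sets, after the genotype means were subtracted. The highest correlation of the same wildtype arrays with a null array of another number was 0.496, 0.446 and 0.243. Whether the numbers pair the samples cannot be told from these values, and the labels do not say. The block turned the sign of Fzd7 (0.14), Sfrp2 (0.23), Apc (0.00) and Gsk3b (0.05). Other small differences also changed sign, and the cause was not tested. These were Fzd2 (-0.20) and Fzd6 (-0.02) with the actin ratio, and Fzd2 (-0.01), Fzd6 (-0.04), Frzb (-0.14) and Gsk3b (0.02) with sex in the fit, which equals leaving out wildtype replicate 4, the 1 array scored female. Apc changed sign with array medians subtracted (0.01) or quantile normalization (0.01), as did Gsk3b with the latter (0.01). Without wildtype replicates 1 and 2 Fzd7 (0.19), Sfrp2 (0.04) and Apc (0.06) changed sign, and without null replicates 3 and 4 as well Fzd2 (-0.01), Fzd6 (0.00), Fzd7 (0.08), Dkk1 (0.06) and Apc (0.13). With 1 array left out the range was -0.19 to 0.15 for Fzd6, -0.12 to 0.10 for Apc, -0.17 to 0.17 for Frzb, -0.16 to 0.04 for Fzd7, -0.12 to 0.02 for Gsk3b and -0.01 to 0.39 for Fzd2.

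Differences between Dvl genes within arrays had been planned and are not used, since Dvl2 and Dvl3 were under the filter and a difference from the floor restates that of Dvl1. That of Dvl2 minus Dvl3 was -0.25, -0.21 with quantile normalization, -0.03 with a floor at log2 4, -0.11 without wildtype replicates 1 and 2, and -0.30 to -0.18 with 1 array left out. Those of Dvl1 minus Dvl2 and Dvl1 minus Dvl3 were -0.62 and -0.87. The permutation tests were run for quantile normalization, the floor and arrays left out (of sets of arrays, only wildtype replicates 1 and 2), and not for the other settings.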
